A study of Mus musculus with 13 samples.

Results

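The co-receptor gene Tdgf1, the ligand genes Nodal and Gdf3 and the inhibitor genes Lefty1 and Lefty2 were followed in mouse cells moving toward pluripotency. They were taken by name from the gene list of the count files, as 5 of 20325 genes, and all 5 passed the filter on low counts that left 14324 genes for testing. Nodal is a secreted ligand of the TGF-beta family. It signals through activin receptors that need the membrane-anchored co-receptor encoded by Tdgf1 (also called Cripto), and SMAD proteins with the partner FOXH1 carry the signal to target genes. Gdf3 encodes a related ligand, and the Lefty proteins are secreted antagonists that the pathway itself switches on, a negative feedback loop. In the early mouse embryo the pathway patterns the epiblast and is needed to form mesoderm and endoderm, and its genes are also active in cultured embryonic stem cells (ESCs).

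RNA was sequenced from pre-iPSCs, cells derived from mouse embryonic fibroblasts (MEFs) that stopped partway through reprogramming, and from ESCs of the line V6.5. The pre-iPSCs were wild type (WT) or carried a knockout (KO) of Kdm3b, which encodes a demethylase of histone H3 lysine 9. Both were sampled on 3 days, 0, 2 and 10, of treatment with AA+2i, which is 50 µg/mL ascorbic acid (AA) with the GSK3 inhibitor CHIR-99021 and the MEK inhibitor PD-0325901 (2i). All cells were grown in medium with 15% fetal bovine serum and leukemia inhibitory factor, and on day 4 cultures were split. Libraries of day 0 carry DMSO in their title although their treatment label reads AA+2i, and they were taken as the untreated start. No untreated cells of day 10 were analysed here, so days in culture and treatment cannot be told apart. The 6 pre-iPSC groups hold 2 libraries each, lettered A and B, which the labels do not describe as separate cultures. P-values therefore measure the spread between these libraries, which may be technical. The labels name no clones, so genotype and any other difference between the WT and KO lines cannot be told apart. The single ESC library is also labelled AA+2i, at 0hr, so its treatment is uncertain, and it entered no test.

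Library totals ran from 14891294 to 26430050 expected counts. Levels are given as CPM, the count of a gene scaled to a fixed library total, and a log2 fold change is called when its false discovery rate (FDR) over all tested genes is under 0.05. Statements that groups overlap or not describe 2 libraries a group, and the share of all genes that do so was not counted. Kdm3b stood at 146 to 261 CPM in the WT libraries and at 17.7 to 65.5 CPM in the KO libraries, and was called lower in KO at every day. Of 6 tested pluripotency genes besides Tdgf1, Nanog, Esrrb, Zfp42 and Dppa5a were called higher in WT at day 10 than at day 0. Pou5f1 was called lower, from 3925 and 7662 CPM at day 0 to 1265 and 1387 CPM at day 10, beside 1470.5 CPM in the ESC library. Sox2 was not called, and the median log2 fold change of the list was 6.68. The same 4 genes rose in KO (median of the list 4.22) and were lower in KO than in WT at day 10 (median -3.87). A rise in WT with lower KO levels is thus not particular to the 5 genes. Markers of other cells moved as well. Summed over 7 fibroblast genes, WT libraries held 9.63 to 17.6 CPM at day 0 and 77.5 to 103 CPM at day 10, KO libraries 2.37 to 3.38 and 9.69 to 10.9 CPM, and the ESC library 256 CPM. Of these 7 genes, 4 were called higher in WT at day 10 than at day 0 (Thy1, Col1a1, Postn and Pdgfrb), while Thy1, Col1a2, Postn and Pdgfrb had no count in KO at day 0. Postn held 48 and 29 counts at WT day 10 and at most 4 in any other pre-iPSC library. Pdgfrb held 37 and 18 counts there and at most 14 elsewhere, in WT day 2 library B. Both passed the filter on low counts through WT day 10 alone, which fixed the direction of their calls. Summed over 7 primitive endoderm genes, WT libraries held 1.72 to 2.51 CPM at day 0 and 8.06 to 8.16 CPM at day 10, KO libraries 3.01 to 5.69 and 3.08 to 4.73 CPM, and the ESC library 9.13 CPM. Of the 5 of these that were tested, Gata6, Gata4 and Sox17 were called higher in WT at day 10 than at day 0. At day 10 Gata4 and Sox17 were lower in KO, whereas Gata4 was called higher in KO at days 0 and 2. In WT, Gata4 was called lower at day 2 than at day 0. Sox17 held 14 and 8 counts at WT day 10 and at most 4 in any other pre-iPSC library. It passed the filter on low counts through WT day 10 alone, which fixed the direction of its calls. Sox17 and Foxa2 had no count in KO at days 0 and 2. Summed over 7 genes of primed epiblast and mesendoderm, WT libraries held 7.53 to 9.52 CPM at day 0 and 45.9 to 47.7 CPM at day 10, KO libraries 11.3 to 11.9 and 6.06 to 9.87 CPM, and the ESC library 72.2 CPM. All 4 that were tested, Otx2, Pou3f1, Eomes and Gsc, were called higher in WT at day 10, and all but Pou3f1 were lower in KO at day 10. Pou3f1 was called higher in KO than in WT at days 0 and 2, while Otx2 was lower at both and Eomes at day 0. Otx2, Eomes and Gsc also stand among the Nodal target genes, and Fgf5, Otx2 and T had no count in KO at day 0. The part of these cell types in the results was not tested. In bulk RNA, fewer cells of a type and less RNA per cell cannot be told apart.

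Libraries of the same letter deviated together at days 0 and 2, where the A minus B differences of any 2 groups correlated across genes at 0.741 to 0.812, but not at day 10 (-0.0273). A fit with the letter as a block at days 0 and 2 is therefore given beside each result of the 5 genes whose call it changed. It added 10 calls among 55 (5 genes in 11 comparisons) and removed 0. It also called far more of the whole table in each of the comparisons concerned. With the block 30.1% of tested genes were called between WT days 0 and 2, 62.7% between WT days 2 and 10, 47.8% between KO days 0 and 10 and 37.2% between KO days 2 and 10. The share was 36.7% between KO and WT at day 2, 7.74% for the day 2 interaction and 44.6% for the day 10 interaction. Across genes, the A minus B differences also had a Spearman rank correlation with transcript length at the early days. It was -0.506 in WT and -0.4 in KO at day 0, and -0.387 and -0.41 at day 2. At day 10 it was 0.0725 in WT and 0.0516 in KO. Comparisons of day 10 with an earlier day cross this difference, and its part in them was not tested.

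Promoter sequence is shown for Tdgf1 and Nodal, the co-receptor and its ligand, to give the regulatory stretch of both. These are the 2 of the 5 genes matched in the RefSeq promoter table, and Gdf3, Lefty1 and Lefty2 were not matched. Each line holds the 250 bases before the start site, 5′ to 3′ on the gene's strand, from RefSeq for GRCm38.p6, a later build than the mm9 of the counts. The Tdgf1 stretch is chr9:110946159-110946408 on the minus strand and the Nodal stretch is chr10:61417722-61417971 on the plus strand. Capitals mark matches to the motifs searched.
Tdgf1: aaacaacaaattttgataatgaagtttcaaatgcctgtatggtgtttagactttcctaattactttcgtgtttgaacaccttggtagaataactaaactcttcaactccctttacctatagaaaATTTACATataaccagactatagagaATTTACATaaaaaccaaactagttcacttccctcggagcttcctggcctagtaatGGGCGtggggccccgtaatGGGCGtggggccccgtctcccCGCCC
Nodal: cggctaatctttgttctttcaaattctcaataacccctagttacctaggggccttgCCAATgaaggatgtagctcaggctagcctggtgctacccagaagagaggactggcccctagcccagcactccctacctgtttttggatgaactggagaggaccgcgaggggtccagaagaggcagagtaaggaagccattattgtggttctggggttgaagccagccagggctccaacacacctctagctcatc

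Motifs were searched on both strands of the window from 250 bases before to 50 bases after the start. The Tdgf1 window held 2 matches to the octamer ATGNAAAT, the kind of sequence that the pluripotency factor OCT4 binds, at -126 and -100 and both on the opposite strand. Of the 32851 promoter windows in the RefSeq table, 5.67% held at least 1 octamer match and 0.411% held 2 or more. It also held 3 matches to the GC box GGGCG, at -45, -26 and -5, and 31% of all windows held 2 or more. The GC box was added to the search after the sequence had been read. The Nodal window held 1 match to CCAAT, at -194, a motif present in 37.4% of windows. Neither window held TATAAA (the TATA box), ACAATG (SOX), CACCC (KLF), ATCAAAG (TCF/LEF), CAGACA (SMAD), AATNCACA (FOXH1) or TAATCC (OTX). Each factor was searched by a single string of letters. Other forms of its site, including KLF sites that resemble the GC box, were not searched. These matches describe letters only, and no binding was measured.

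**Figure D1:**
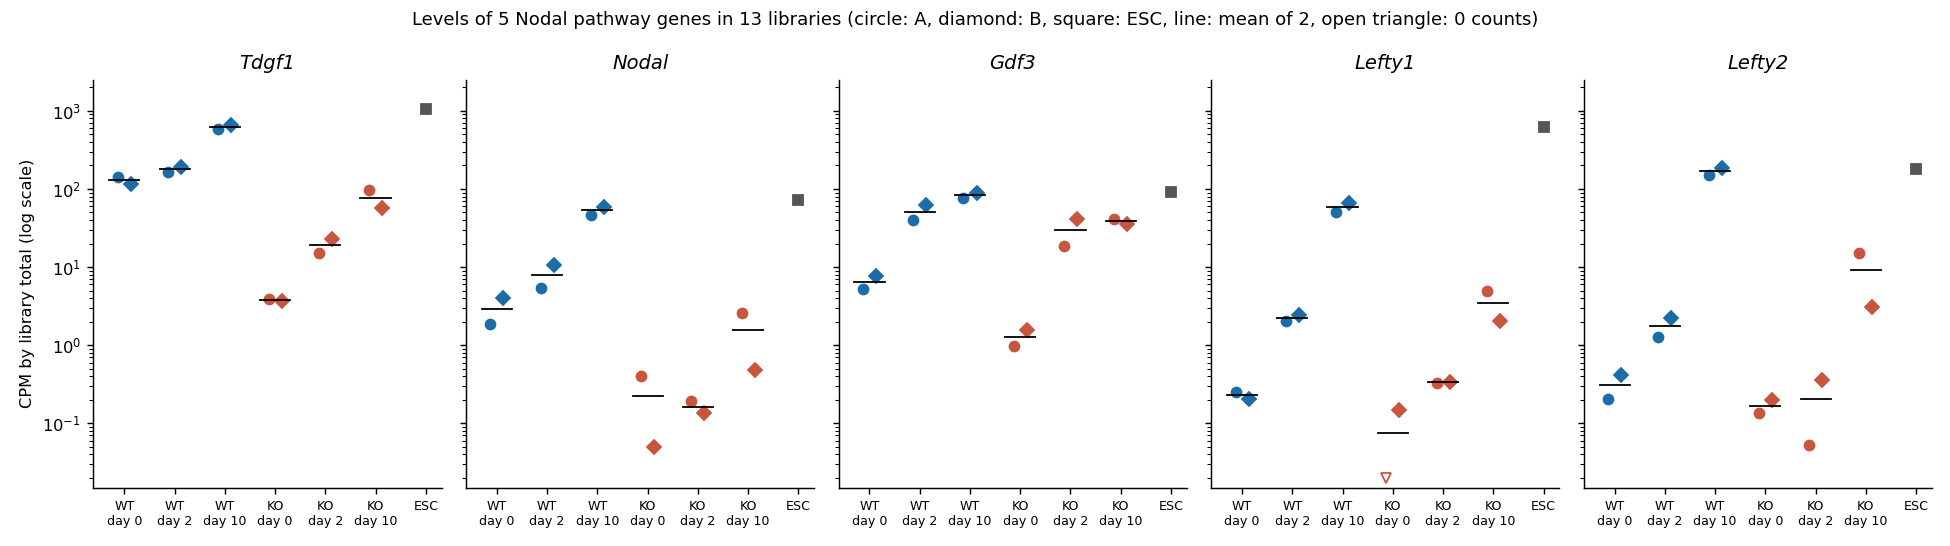
Level of each gene in the 13 libraries, in CPM on a log axis, by genotype and day (blue WT, red KO, grey ESC; lines are means of 2). Day 10 is the highest pre-iPSC day of each WT panel, and every KO library lies under every WT library of its day except for Gdf3 at day 2. The share of all genes separated in this way was not counted.

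In WT cells all 5 genes rose between day 0 and day 10, but over very different ranges. By their log2 fold changes Gdf3 took its larger step by day 2, and the other genes took theirs after it. Lefty1 was also called higher at day 2, a call that depended on single libraries. Its log2 fold change there (3.15, SE 0.600) was close to that of Lefty2 (2.52, SE 0.871), which was not called. No test compared the timing of the genes. Tdgf1 was already high at the start and changed least. Called genes made up 34.1% of the 14324 genes tested between day 0 and day 10, with 21% higher. The median log2 fold change was 4.15 over the 5 genes and -0.03 over all tested genes. Between day 0 and day 2, when 5.3% of tested genes were called (3.32% higher), 2 of the 5 were called, both higher, and the medians were 2.52 and 0.

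Among the ligands, Nodal stood at 1.85 and 4.00 CPM in the WT day 0 libraries A and B, at 5.42 and 10.6 CPM at day 2, and at 46.8 and 59.3 CPM at day 10. Its 3 days did not overlap. The log2 fold change to day 10 was 4.15 (SE 0.728, FDR = 0.00248), a mean 18.1 times that of day 0. The early difference was not called (log2 fold change 1.43, SE 0.675, FDR = 0.328) except with the letter block (1.43, FDR = 0.0125). Most of the rise fell after it, with a log2 fold change of 2.72 from day 2 to day 10 (SE 0.675, FDR = 0.0158). That last call was lost when any 1 of the 4 libraries compared was left out (FDR up to 0.106).

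Gdf3, the other ligand gene, took the opposite course in time. Its WT libraries held 5.19 and 7.64 CPM at day 0, 39.5 and 62.4 CPM at day 2, and 76.5 and 90.0 CPM at day 10. The days did not overlap, and the larger step came first. Gdf3 rose by a log2 fold change of 2.96 by day 2 (SE 0.372, FDR = 0.00312) and of 3.65 by day 10 (SE 0.382, FDR = 0.000196). From day 2 to day 10 the log2 fold change of 0.70 was not called (SE 0.342, FDR = 0.168), and with the letter block it was (0.72, FDR = 0.000278). Without the WT day 0 library A the day 2 FDR was 0.0504.

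Tdgf1, the co-receptor gene, was by far the most abundant of the 5 at the start. It stood at 143 and 116 CPM at day 0, 165 and 190.3 CPM at day 2, and 593 and 666 CPM at day 10. Every day 10 library lay above every earlier one. The log2 fold change of 0.41 at day 2 was not called (SE 0.278, FDR = 0.566), and Tdgf1 rose by 2.21 by day 10 (SE 0.290, FDR = 0.00058), a 4.86-fold rise in the mean.

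The inhibitor genes Lefty1 and Lefty2 began near the limit of detection and ended among the well expressed. Lefty1 held 0.252 and 0.208 CPM at day 0, 2.03 and 2.46 CPM at day 2, and 50.1 and 66.7 CPM at day 10. Lefty2 held 0.203 and 0.414 CPM at day 0, 1.26 and 2.22 CPM at day 2, and 152 and 185 CPM at day 10. The days did not overlap for either gene, and Lefty2 passed Lefty1 at day 10. The log2 fold changes to day 10 were 7.82 for Lefty1 (SE 0.620, FDR = 6.15e-05) and 9.10 for Lefty2 (SE 0.903, FDR = 0.000156). Since the 2 day 0 libraries together held 11 Lefty1 and 13 Lefty2 counts, the ratio of pooled CPM, 239.9 for Lefty1, had a 95% counting interval of 134 to 481, and that of Lefty2, 588, one of 344 to 1105. At day 2 Lefty1 was called (log2 fold change 3.15, SE 0.600, FDR = 0.0195) and Lefty2 was not (2.52, SE 0.871, FDR = 0.156). The Lefty1 call at day 2 was lost without any 1 of the 4 libraries compared (FDR up to 0.143), while the counts of both genes added together were called (log2 fold change 2.85, FDR = 0.0394).

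Between day 2 and day 10 of WT, 29.5% of tested genes were called, 18.3% higher, and 4 of the 5 genes were called higher, all but Gdf3. Both inhibitors moved further than the ligands in this step, at log2 fold changes of 4.68 for Lefty1 and 6.58 for Lefty2. Tdgf1 moved by 1.80 (SE 0.286, FDR = 0.00199).

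**Figure D2:**
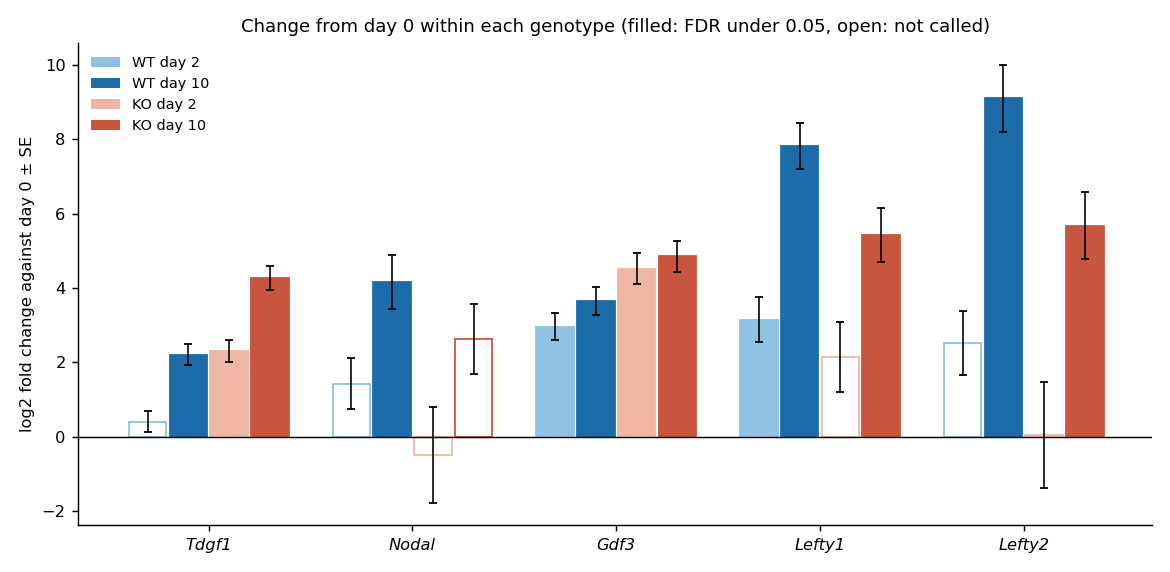
Log2 fold change of each gene against day 0 of its own genotype, with the standard error, from the fit over 12 libraries (filled bars called at FDR under 0.05, open bars not). Lefty1 and Lefty2 have the tallest WT day 10 bars, the bars of Tdgf1 and Gdf3 are taller in KO than in WT (without the letter block the difference was called for Tdgf1 at day 10 alone), and the KO day 2 bar of Lefty2 is 0.04.

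Kdm3b KO cells were called lower for the co-receptor and the ligands at day 0, and for all 5 genes at day 10. The day 0 call of Nodal and the day 10 call of Gdf3 depended on single libraries. Tdgf1 showed the widest gap at day 0 and Nodal the widest at days 2 and 10. At day 0, 8.29% of tested genes were called between KO and WT, 5.59% lower, and 3 of the 5 genes were called, all lower. The count was again 3 lower at day 2, beside 10.5% of tested genes called and 6.16% lower. At day 10 all 5 were lower, beside 32.3% called and 19.9% lower. The median log2 fold change of the 5 genes was -2.26, -3.15 and -4.03 at the 3 days, against 0, 0.02 and -0.02 over all tested genes.

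Nodal was barely detected in KO cells. At days 0, 2 and 10 in turn, KO libraries A and B held 9 and 1, 4 and 2, and 42 and 8 counts, which is 0.404 and 0.0496, 0.192 and 0.134, and 2.62 and 0.484 CPM. Even the highest KO library of day 10 lay under both WT libraries of day 2, and no day overlapped with WT. The log2 fold change was -5.44 at day 2 (FDR = 0.00747, SE 0.954) and -5.05 at day 10 (FDR = 0.00155, SE 0.777). The ratio of WT to KO pooled CPM at day 10 was 34.2, with a counting interval of 25.8 to 46.3. The KO day 10 libraries were unlike each other, and the log2 fold change was -6.70 without A and -4.26 without B, called in both cases. The day 0 difference (log2 fold change -3.51, SE 0.899, FDR = 0.0461) was lost in 10 of 12 fits that left out a library, ran from -5.67 without KO library A to -2.73 without KO library B, and missed the threshold when library totals replaced the normalisation factors (FDR = 0.0501). At day 2 the call was lost without KO library B (FDR = 0.0544).

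Gdf3 showed the smallest gap at days 2 and 10. KO cells held 0.973 and 1.58 CPM at day 0, 18.7 and 41.5 CPM at day 2, and 41.3 and 35.8 CPM at day 10. At day 2 the higher KO library, B, lay above the lower WT library, A, but KO was under WT within each letter, whereas the groups were apart at days 0 and 10. KO was lower by a log2 fold change of -2.26 at day 0 (FDR = 0.00933, SE 0.398), and at day 2 the value of -0.70 was not called (SE 0.343, FDR = 0.290) except with the letter block (-0.75, FDR = 0.000637). The day 0 call was lost without WT library B (FDR = 0.0693) or KO library A (FDR = 0.0782). At day 10 the log2 fold change was -1.07 (SE 0.345, FDR = 0.043), a WT mean 2.16 times that of KO. This call was lost in 10 of 12 fits without 1 library (FDR up to 0.237) and under both other filters and library totals (FDR 0.055 to 0.0634).

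Tdgf1 was lower in KO at each day, with a smaller gap at day 10 than at day 0. KO libraries held 3.90 and 3.67 CPM at day 0, 15.3 and 23.2 CPM at day 2, and 95.7 and 57.3 CPM at day 10. The highest KO value, at day 10, did not reach the lowest WT value, at day 0. The log2 fold change was -5.05 at day 0 (FDR = 9.99e-05, SE 0.335), -3.15 at day 2 (FDR = 0.000492, SE 0.303) and -2.99 at day 10 (FDR = 0.000219, SE 0.299). These are WT means 34.2, 9.26 and 8.23 times those of KO.

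For the inhibitors no difference was called at day 0, when both genotypes held few counts, and both genes were lower in KO at day 10. Lefty1 had 0 counts in KO library A at day 0, which allows up to 0.135 CPM, and 3 counts in library B. It reached 0.331 and 0.336 CPM at day 2 and 4.89 and 2.06 CPM at day 10. At day 0 the ratio of WT to KO pooled CPM was 3.40, with a counting interval of 0.899 to 19.0, so no difference was detectable at this depth. Lefty1 was lower in KO by a log2 fold change of -2.64 at day 2 (FDR = 0.0233, SE 0.595) and of -4.03 at day 10 (FDR = 0.000503, SE 0.486). The day 2 call was lost without any 1 of the 4 libraries compared (FDR up to 0.108), and the day 10 value was -4.77 without KO library A.

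Lefty2 held 0.134 and 0.200 CPM in KO at day 0, 0.0523 and 0.360 CPM at day 2, and 15.2 and 3.09 CPM at day 10. The KO day 10 libraries differed widely in this gene, but both lay far under the WT values of 152 and 185 CPM. The log2 fold change at day 10 was -4.16 (SE 0.676, FDR = 0.00198), and -5.71 without KO library A and -3.40 without B, called in both cases. At day 2 the value of -3.21 was not called (FDR = 0.0823) except with the letter block (-3.18, FDR = 0.0417), and the summed counts of both Lefty genes were lower in KO (log2 fold change -2.87, FDR = 0.0275).

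**Figure D3:**
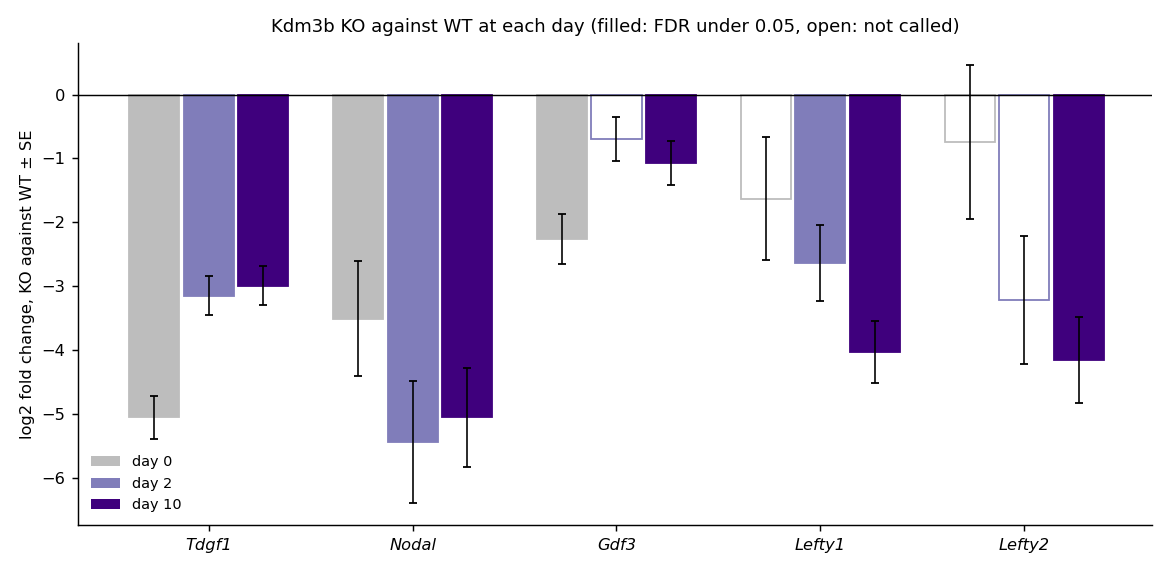
Log2 fold change of KO against WT at each day, with the standard error (filled bars called at FDR under 0.05, open bars not). The Tdgf1 bar is longest at day 0 and those of Lefty1 and Lefty2 at day 10, a difference between days 0 and 10 that was called for Tdgf1 and not for the Lefty genes, and the Gdf3 bar at day 2 is -0.70.

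Most of the 5 genes also rose in KO cells. From day 0 to day 10, when 15.1% of tested genes were called (9.93% higher), 4 of the 5 genes rose, and the median over the 5 was 4.85 against -0.01 over all tested genes. Tdgf1 rose by a log2 fold change of 4.27 (SE 0.324, FDR = 0.000109), from the lowest start of any group. Gdf3 rose by 4.85 (SE 0.421, FDR = 0.000178), and had done so almost in full by day 2 (4.52, SE 0.417, FDR = 0.000586). Between day 0 and day 2, Tdgf1 and Gdf3 were the 2 of the 5 called, both higher, beside 6.39% of tested genes called and 4.02% higher. The log2 fold change of Tdgf1 at day 2 was 2.31 (SE 0.303, FDR = 0.00281). Without KO day 2 library B the day 2 value of Gdf3 was 3.88, still called. The changes from day 0 and the KO against WT values share their day 0 libraries.

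Lefty1 and Lefty2 rose in KO from day 0 to day 10, from 3 and 7 pooled counts. The ratio of pooled CPM was 48.7 for Lefty1 (counting interval 16.2 to 239.8; FDR = 0.00166) and 54.8 for Lefty2 (26.3 to 137; FDR = 0.0038). The Lefty2 log2 fold change of 5.67 became 4.12 without KO day 10 library A and 6.44 without B, and the Lefty1 value of 5.43 ran from 4.47 without KO day 0 library A through 4.69 without KO day 10 library A to 9.06 without KO day 0 library B, always called. Nodal, at 0.404 and 0.0496 CPM at day 0 and 2.62 and 0.484 CPM at day 10, was not called (log2 fold change 2.62, SE 0.945, FDR = 0.104). It passed without KO day 10 library B (FDR = 0.0446), in DESeq2 (FDR = 0.0205) and with the letter block (2.63, FDR = 0.0142).

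From day 2 to day 10 in KO, 3.1% of tested genes were called, 2.49% higher, and Tdgf1 (log2 fold change 1.96, FDR = 0.0118), Lefty1 (3.29, FDR = 0.0236) and Lefty2 (5.63, FDR = 0.0169) were 3 of the 5 called, all higher. The letter block called the other members as well, Nodal at 3.09 (FDR = 0.0153) and Gdf3 at 0.40 (FDR = 0.0353). None of the 3 calls held when only the 4 KO libraries compared were fitted (FDR 0.141 to 0.151). Leaving out 1 library left 0 to 3 of the 5 genes called, with 0 called without KO day 2 library A and 1 without KO day 2 library B or KO day 10 library A.

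Whether the change from day 0 differed between genotypes was tested as an interaction. Tdgf1 rose further in KO than in WT by day 10, with a difference in log2 fold change of 2.05 (SE 0.404, FDR = 0.0121), and it was the only one of the 5 called, beside 12.6% of tested genes called and 6.35% higher. The KO level nonetheless stayed 8.23-fold under the WT level. The call was lost without WT day 10 library A (1.99, FDR = 0.0557). Differences for Gdf3 (1.19, SE 0.520, FDR = 0.187), Nodal (-1.53, SE 1.26, FDR = 0.535), Lefty1 (-2.40, SE 1.34, FDR = 0.315) and Lefty2 (-3.43, SE 1.52, FDR = 0.195) were not called, but that of Lefty2 was called without KO day 10 library A (FDR = 0.0295) and that of Gdf3 with the letter block (1.21, FDR = 0.00263). For day 2, edgeR called 0 of the 5, beside 0.195% of tested genes called in either direction. The unadjusted p of the edgeR test was 0.00122 for Tdgf1 and 0.0156 for Gdf3, and how many of all genes reached such values was not counted. DESeq2 called 1 of the 5, Tdgf1 (FDR = 0.0043), beside 220 genes of the whole table. The letter block called both, Tdgf1 at 1.89 (FDR = 0.00363) and Gdf3 at 1.53 (FDR = 0.00329), each with the larger change in KO.

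The single ESC library set a reference for a pluripotent cell. It held 1068 CPM of Tdgf1, 71.4 of Nodal, 90.5 of Gdf3, 626 of Lefty1 and 182 of Lefty2. WT cells at day 10 averaged 91.9% of the ESC level for Gdf3, 92.7% for Lefty2, 74.4% for Nodal and 58.9% for Tdgf1, but 9.33% for Lefty1. With normalisation factors over all 13 libraries every one of these WT shares was lower. They were 83.3% for Gdf3, 83.9% for Lefty2, 67.4% for Nodal, 53.3% for Tdgf1 and 8.45% for Lefty1. KO cells at day 10 averaged 42.5% for Gdf3, 7.16% for Tdgf1, 5.01% for Lefty2, 2.18% for Nodal and 0.555% for Lefty1. Single KO libraries ran from 1.7% to 8.33% for Lefty2, from 0.679% to 3.68% for Nodal, from 0.329% to 0.782% for Lefty1 and from 5.36% to 8.96% for Tdgf1. The ratio of ESC to WT day 10 pooled CPM was 10.8 for Lefty1, with a counting interval of 10.3 to 11.4, and 1.09 for Lefty2, with one of 1.04 to 1.13. These intervals cover counting error only and say nothing of the spread between ESC cultures.

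Ranked over the 7 groups, Tdgf1 fell from ESC through WT day 10, WT day 2, WT day 0, KO day 10 and KO day 2 to KO day 0, and only WT days 2 and 0 were neighbours without a call among the pairs tested. Nodal fell from ESC through WT day 10, day 2 and day 0 to KO day 10, which overlapped with WT day 0, with KO days 0 and 2 overlapping at the bottom. Its WT days 2 and 0 were not called apart without the letter block. Gdf3 fell from ESC through WT day 10, WT day 2, KO day 10 and KO day 2 to WT day 0 and KO day 0. KO day 10 and KO day 2 each overlapped with WT day 2 and with each other. Its WT days 10 and 2, and its KO days 10 and 2, were not called apart without the letter block. Lefty1 fell from ESC through WT day 10 to KO day 10 and WT day 2, which overlapped, and then to KO day 2, WT day 0 and KO day 0. For Lefty2 the ESC value lay within the 2 WT day 10 libraries, followed by KO day 10 and WT day 2, and then by WT day 0, KO day 2 and KO day 0, among which KO day 2 overlapped with both.

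Levels between genes were compared per transcript length, on the TPM scale, where the values of a library add up to a fixed total. Tdgf1 came first in every WT group and in the ESC library, at 135 ± 7.05 TPM at WT day 0, 634 ± 43.6 at WT day 10 (SD, n = 2) and 921 in ESCs. At WT day 0 it was followed by Gdf3 at 6.36 ± 2.89 and Nodal at 2.99 ± 2.04 TPM, with Lefty1 (0.29 ± 0.0141) and Lefty2 (0.265 ± 0.177) last and within their spread. At WT day 10 Lefty2 was next at 132 ± 16.4 TPM, then Gdf3 at 76.4 ± 7.79 and Lefty1 at 71.1 ± 13.4, which did not differ beyond their spread, then Nodal at 49.1 ± 7.52. KO cells at day 10 had Gdf3 second at 34.5 ± 3.85 TPM after Tdgf1 at 75.2 ± 27.5, and Nodal last at 1.40 ± 1.38.

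Tdgf1 made up 95.4% and 91.2% of the summed TPM of the 5 genes in the WT day 0 libraries, and 67% and 64.8% at WT day 10. The sum itself went from 137 and 154 TPM to 900.2 and 1025 TPM. In KO cells at day 2 Gdf3 was the largest component, at 51.8% and 61.2%, while in ESCs Lefty1 took 35.8%. Within the Lefty pair, Lefty1 held 33.8% and 35.9% of the TPM in the WT day 10 libraries, 33.4% and 50.9% in the KO day 10 libraries and 84.2% in ESCs. The ESC library thus had mostly Lefty1 and the WT day 10 libraries mostly Lefty2, a difference that has 1 ESC library behind it and no test.

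**Figure D4:**
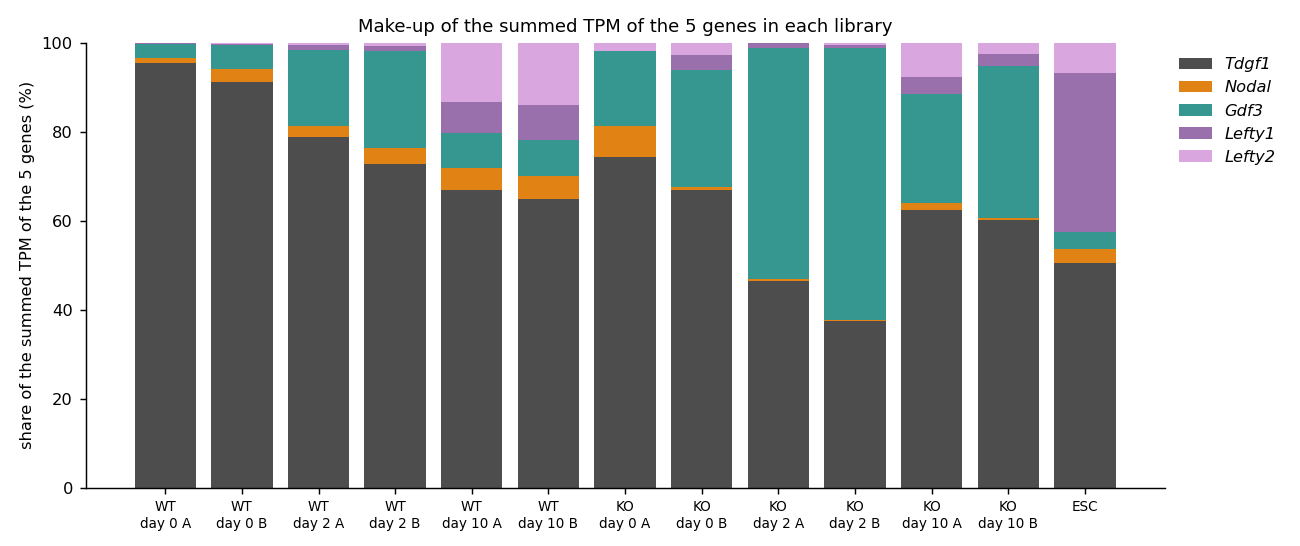
Share of each gene in the summed TPM of the 5 genes, in percent, for each of the 13 libraries. Tdgf1 takes over 90% at WT day 0, Gdf3 over 50% in both KO day 2 libraries, and Lefty1 35.8% in the ESC library.

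Sequence shared between genes bears on these splits, because expected counts divide reads that fit several transcripts. In the GENCODE transcripts of GRCm38, 17.9% of the 50-base windows of Lefty1 also occur in Lefty2, and 11.6% of those of Lefty2 occur in Lefty1. Tdgf1 shares 12.5% of its windows with the pseudogene Tdgf1-ps1, which is not among the genes analysed here. Gdf3 shares 2.02% and Nodal none. The read length is not given in the sources used here, and with 36-base windows 23% of those of Lefty1 occur in Lefty2, 15% of those of Lefty2 in Lefty1 and 16.1% of those of Tdgf1 in Tdgf1-ps1, while Gdf3 shares 3.06% with other genes and Nodal 0%.

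The rest of the pathway was described over 38 further genes, of which 30 were tested. In WT cells 14 were higher at day 10 than at day 0 and 0 lower, beside 21% of all tested genes higher, with a median log2 fold change of 0.99. In KO cells 4 were higher and 1 lower, near the 15.1% called and 9.93% higher of all tested genes, with a median of 0.17. Between KO and WT at day 10, 1 was higher and 9 were lower, beside 19.9% of all tested genes lower (median -0.44). The whole-table medians of these comparisons lay between -0.03 and -0.01. The counts by role that follow stand against the same shares of all tested genes.

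Of 5 tested ligand and processing genes, 2 rose in WT by day 10. Pcsk6, which encodes a proprotein convertase that cleaves the Nodal precursor, stood at 0.908 and 1.40 CPM at day 0 and at 60.7 and 65.4 CPM at day 10. It held 3.44 and 1.57 CPM in KO at day 10, well apart from WT, at a log2 fold change of -4.61 (SE 0.621, FDR = 0.000829). Gdf1, a partner ligand of Nodal, rose to 2.73 CPM (log2 fold change 2.31, FDR = 0.0201), but it shares a transcript with Cers1, so its count is uncertain. Inhbb, an activin subunit gene, was lower at day 2 in both genotypes (-1.39 in WT and -2.05 in KO), and Inha, an inhibin subunit gene, was called in no comparison.

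Few receptor genes were called. Acvr1b, Acvr2a and Acvr2b, which encode the activin receptors that Nodal uses, were called in no comparison. Their lowest FDR was 0.0659, 0.379 and 0.0505 in turn, so Acvr1b and Acvr2b missed the threshold narrowly. At day 10 Acvr2b held 16.5 and 17.7 CPM in WT and 6.87 and 5.57 CPM in KO. Acvr1b held 53.4 and 43.1 against 22.4 and 22.6 CPM, and Acvr2a 15.9 and 16.0 against 16.1 and 19.9 CPM. Tgfbr3, which encodes the co-receptor betaglycan, rose in WT by day 10 (log2 fold change 2.75, FDR = 0.00387), having been higher in KO than in WT at day 0 (2.65, FDR = 0.0155). Cfc1, a relative of Tdgf1, was also called higher in WT at day 10, at 0.772 and 0.906 CPM. It held 14 counts in each of these libraries and at most 1 in any other pre-iPSC library. The filter on low counts thus fixed the direction of this call.

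Among 5 signal transducer genes, Foxh1 encodes the DNA-binding partner of the SMADs. It stood at 4.43 and 3.48 CPM at WT day 0, 15.2 and 18.8 CPM at day 2 and 19.6 and 21.4 CPM at day 10, and in KO at 0.898 and 0.943, 6.33 and 8.86, and 15.1 and 11.7 CPM. It rose by day 2 in WT (log2 fold change 2.05, FDR = 0.0026) and in KO (3.01, FDR = 0.000581). KO was lower at days 0 (-2.06, FDR = 0.00231) and 2 (-1.09, FDR = 0.0204), and its rise by day 10 was larger in KO (interaction 1.49, FDR = 0.0284). Smad3 was higher in KO at day 10 by 0.57 (FDR = 0.0131), Zfyve9, a SMAD anchor gene, fell in KO by day 10 (log2 fold change -0.94, FDR = 0.0486), and Smad4 was called in no comparison.

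Of 11 tested inhibitor genes other than the Lefty pair, 5 rose in WT by day 10 and 2 in KO. Smad7, which encodes an inhibitory SMAD, went from 3.97 and 7.74 CPM to 49.2 and 53.0 CPM in WT, and reached 10.3 and 5.87 CPM in KO (KO against WT -2.61, SE 0.370, FDR = 0.00105). Fstl3, a binder of activin, rose in WT (3.12, FDR = 0.00122) and in KO (2.88, FDR = 0.00633). Tgif2, a transcriptional co-repressor gene, was lower in KO at day 0 (log2 fold change -0.73) and at day 2 (-0.89). Ski, another co-repressor gene, was called only between WT days 2 and 10, at 1.02 (FDR = 0.00435).

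Genes that Nodal signalling is known to switch on in the embryo, of which 6 of 11 were tested, were mostly higher in WT. Smad7 and Skil stand in this list and among the inhibitors. In WT 5 rose by day 10, in KO 1, and all 6 were lower in KO at day 10, with a median log2 fold change of -2.50. Pmepa1, a feedback inhibitor of TGF-beta signalling, held 29.5 and 28.2 CPM in WT and 1.81 and 1.45 CPM in KO at day 10 (log2 fold change -4.09, FDR = 0.000525). Otx2, an epiblast homeobox factor, held 30.2 and 25.0 against 3.56 and 1.76 CPM (-3.33, FDR = 0.000377), and had no count in either KO day 0 library. Gsc, a homeobox gene of the gastrula organizer, held 5.13 and 5.95 against 1.44 and 1.57 CPM (-1.83, FDR = 0.0198). The change from day 0 to day 10 was smaller in KO for Pmepa1 and Smad7 (interactions -2.84 and -2.26, FDR 0.0282 and 0.022). The interaction of Otx2 was called in the other direction (FDR = 0.0156), and its size depends on the prior count because KO day 0 held no count.

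**Figure D5:**
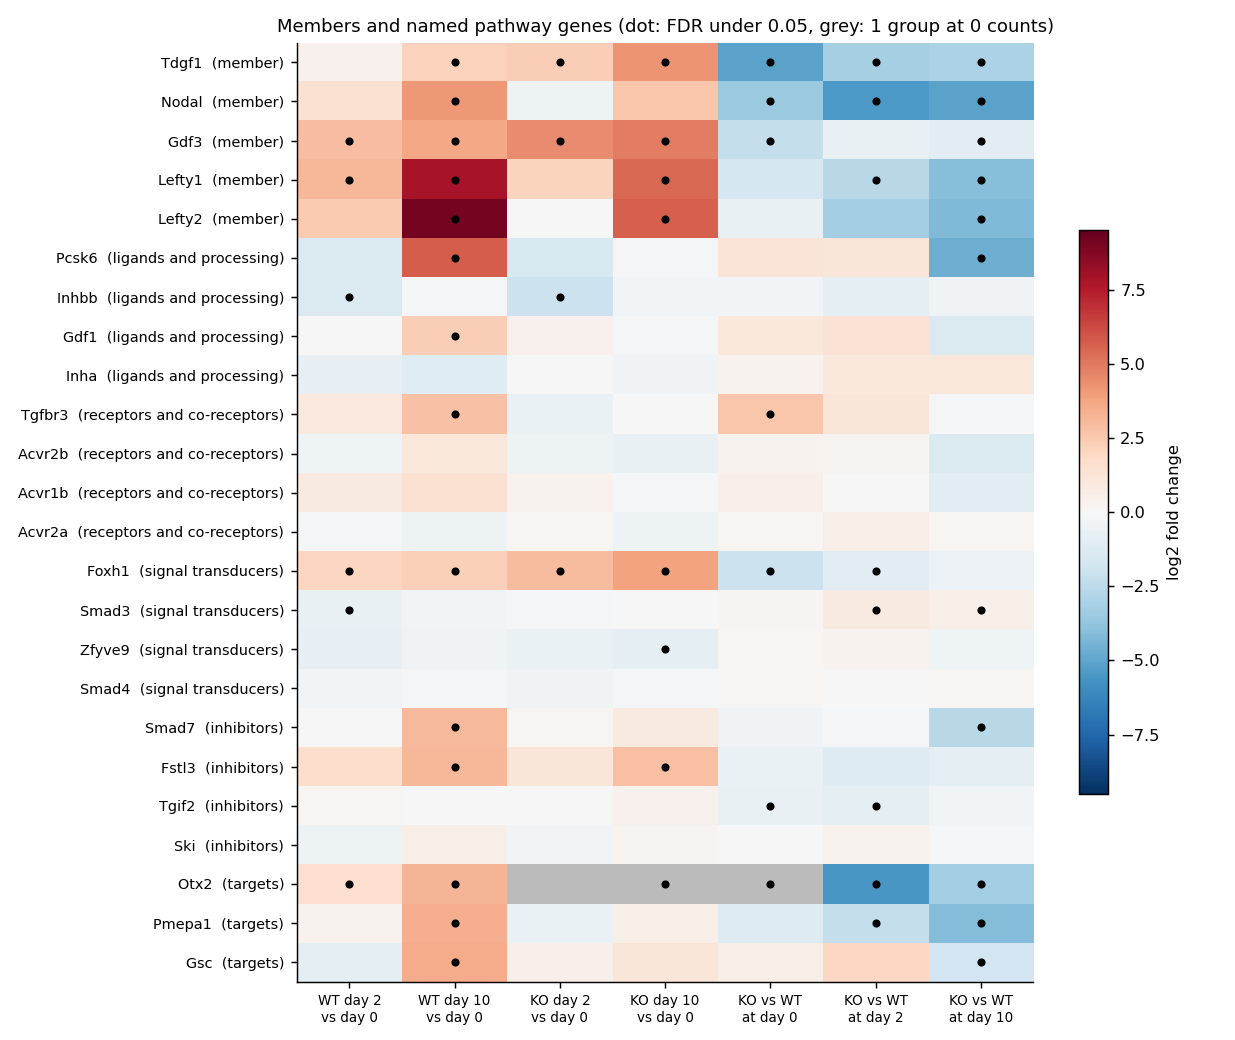
Log2 fold changes of the 5 genes and the named pathway genes in 7 comparisons (colour; dot, FDR under 0.05; grey, a group without counts). The column of KO against WT at day 10 is blue for the 5 genes, Pcsk6, Smad7, Otx2, Pmepa1 and Gsc, while the activin receptor rows carry no dot.

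Genes with a pattern most like each of the 5 were found by Pearson's correlation of log2 CPM over the 12 pre-iPSC libraries, among all tested genes, as a description. The libraries share their genotypes and days, so high values are common. For Gdf3 they were Tcfcp2l1 (0.984), Foxh1 (0.980), Magi3, Tmem56 and Apoe. For Tdgf1 they were Gbp2, Cables1, Otx2, Trap1a (each 0.982) and Thy1 (0.981). For Nodal they were Sec14l4 (0.979), Wwp2, Dnmt3b, Krt8 and Tmem30b, for Lefty1 Tbx3 (0.984), Gjb2, Apoc1, Fabp3 and Osm, and for Lefty2 Triml2 (0.990), Ptges, Pnma5, Psd4 and Triml1.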

How the data were processed

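Single-end TruSeq libraries of total RNA were made from each sample, per the labels' protocols. The authors aligned reads with Bowtie2 to mm9 and counted genes with RSEM, per the submitters' processing notes, in an order and in versions not given in the sources used here. The deposited RSEM files hold an expected count, a TPM and an FPKM for each gene, with its transcript lengths, per the file headers. FPKM values were not used. In each library 35 to 43.8% of the deposited expected counts lay more than 0.005 from a whole number.

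After rounding, 1 model of the 6 pre-iPSC groups was fitted to these counts by edgeR 4.0.16 under R 4.3.3 and tested by quasi-likelihood (filterByExpr, TMM factors, Benjamini-Hochberg FDR over 14324 genes, 6 residual degrees of freedom, common biological coefficient of variation 0.266). The standard error is the log2 fold change divided by the root of F. The labels do not say what a letter shares. The letters were taken to pair libraries at days 0 and 2 from the data, since all 6 correlations of A minus B differences among these groups were 0.741 or more, and not at day 10. Means are over 2 libraries, intervals are exact at 95% for counting error only, and a count of 0 allows up to 3 counts. Alternatives covered normalisation, filters, DESeq2 1.42.0, a replicate block, the libraries compared alone and leaving out each library. The genes and lists were chosen with earlier results of these data known. Genes named are Kdm3b, the 5 genes, the 4 genes of lowest FDR in each pathway role with a mean of at least 1 CPM in some group, the 5 genes most alike each of the 5, and 3 neighbours on each side, of which some genes are not reported here. Cfc1 and the marker genes were named outside this rule, after their values were seen. Neighbours follow the gene order of GRCm38, and chromosome positions were not converted between builds.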

Additional observations from a re-analysis of the deposited data

Results flagged for a closer look

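The change of Tdgf1 from day 0 to day 10 differed between the genotypes, by 2.05 on the log2 scale in the interaction test (SE 0.404, edgeR FDR = 0.0121). Tdgf1 went from 129.5 to 629 CPM in WT and from 3.79 to 76.5 CPM in KO, means of 2 libraries each. All 4 day 10 libraries lay above the day 0 libraries of their genotype. The call was lost without WT day 10 library A (1.99, FDR = 0.0557), and over the 12 fits that left out a library the value ran from 1.66 to 2.42.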

How the results depend on the processing

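The counts of the 5 genes called changed as follows. For day 2 against day 0, WT had 2 called, 1 with only the libraries compared and 0 to 3 with a library left out; KO had 2, and 0 with only the libraries compared. For KO day 10 against day 2, 3 were called, 5 with a replicate block at days 0 and 2, 0 with only the libraries compared and 0 to 3 with a library left out. For KO against WT, 3 were called at day 0, 1 with only the libraries compared and 1 to 3 with a library left out; 3 were called at day 2, 5 with the replicate block at days 0 and 2 and 1 to 4 with a library left out. The day 2 interaction called 0, with DESeq2 1 and with that block 2. The day 10 interaction called 1; DESeq2, that block, replicate letter A alone and letter B alone at days 0 and 2 each gave 2, and leaving out a library 0 to 2. WT day 10 against days 0 and 2, KO day 10 against day 0 and KO against WT at day 10 stayed within 1.5 times. Some uncalled log2 fold changes changed sign. For KO day 2 against day 0, Nodal (-0.49) ran from -1.29 to 1.67 (without KO day 0 A) with a library left out and was 1.30 with letter B alone, and Lefty2 (0.04) was -0.17 without KO day 0 A, ran from -1.65 (without KO day 2 B) to 0.93, and was -1.39 with letter A alone. Gdf3 between KO days 2 and 10 (0.33) ran from -0.10 (without KO day 2 A) to 0.98 and was -0.09 with letter B alone. The day 2 interaction of Nodal ran from -2.73 to 0.23 (without KO day 0 A), and that of Lefty1 from -1.97 to 2.59 (without KO day 0 B) and was 2.92 with letter A alone. The day 10 interaction of Nodal ran from -3.16 to 0.66 (without KO day 0 A) and was 1.07 with letter B alone, and that of Lefty1 ran from -3.33 to 1.25 (without KO day 0 B) and was 1.42 with letter A alone. The cause was not tested. The fits with 1 letter and the summed Lefty counts were chosen after seeing the data.

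Over all genes, WT day 2 against day 0 gave 759 calls, 1434 in DESeq2, 1433 with a replicate block over all days, 4318 with the block at days 0 and 2 and 119 with only the libraries compared. KO day 2 against day 0 gave 915, against 1516, 1478, 4225 and 0, KO day 10 against day 2 gave 444, against 1325, 1152, 5328 and 0, and the day 2 interaction gave 28, against 220, 91, 1109 and 0. The day 10 interaction gave 1798, against 2704, 2942 and 6388 in the first 3 of these. KO against WT gave 1187 at day 0, 1792 with the block over all days, 4360 with the block at days 0 and 2 and 141 with only the libraries compared, and 1498 at day 2, against 2293, 5252 and 79. KO day 10 against day 0 gave 2165, against 3284, 6840 and 1042. With the block at days 0 and 2, WT day 10 gave 9412 against day 0 (4889) and 8984 against day 2 (4227), and KO against WT at day 10 gave 9136 (4628), and 8554 with only the libraries compared. With 1 letter at days 0 and 2 the counts ran from 122 (day 2 interaction) to 8966 (KO against WT at day 10).

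The A minus B differences of the day 10 groups correlated with those of days 0 and 2 at -0.061 to 0.0492. The replicate block at days 0 and 2 changed no call of the 5 genes other than the 10 given with the results, and the cause of its larger counts was not tested. With 2 libraries a group, a single library decides many calls, and where a lone library was left it was assumed to vary like the other groups. Under 10 counts per library, Nodal and the Lefty genes in KO at days 0 and 2 are limited by depth.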

Other observations

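The nearest genes along the chromosome, by gene order, were read beside the 5 genes. Beside Gdf3 on chromosome 6 stand Dppa3, a germline and early embryo gene, Nanog, a pluripotency factor, and Slc2a3, a glucose transporter gene. All 3 were called higher in WT at day 10 than at day 0 (log2 fold changes 10.04 from 2 counts, 7.13 and 2.78) and lower in KO at day 10 (-4.96, -3.25 and -2.66). On its other side Apobec1, an RNA-editing enzyme gene, was higher in KO at day 10 (1.60, SE 0.230, FDR = 0.00111) and went from 55.7 to 119 to 43.7 CPM over the WT days. Next to Tdgf1 on chromosome 9, Lrrc2 rose in WT by day 10 (2.75, SE 0.332, FDR = 0.000384) and was lower at day 10 than at day 0 in KO (-1.24, FDR = 0.0375), with an interaction of -3.98 (FDR = 0.00131), while the change of Tdgf1 was larger in KO. Als2cl, also near Tdgf1, did not rise in WT, with 71.3 and 149.6 CPM at day 0 and 72.8 and 71.2 CPM at day 10. Tmie went from 1.32 and 1.40 to 2.98 and 2.33 CPM, and Rtp3 from 0.532 and 1.64 to 2.40 and 8.26 CPM. Near Nodal on chromosome 10, Adamts14, a procollagen protease gene, held 19.9 CPM in WT and 0.897 CPM in KO at day 10 (-4.42, SE 0.844, FDR = 0.00424). Prf1, which lies between them in gene order, had no count in any WT library. On the other side of Nodal, Eif4ebp2 held 57.9 and 73.4 CPM at WT day 0 and 146 and 146 CPM at WT day 10. Its KO day 10 libraries held 131 and 117 CPM. Lrrc20, also on that side, held 11.2 and 10.9 CPM at WT day 0 and 9.38 and 10.8 CPM at WT day 10. Between and around the Lefty genes on chromosome 1, Tmem63a, Acbd3 and H3f3a were not called in WT between days 0 and 10, and Ephx1 was lower at day 10 (-1.47, FDR = 0.0492). No test compared neighbours with other genes.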
